A study of Homo sapiens with 12 samples.

Results

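TMTC1, FILIP1L and FAM171B were higher in every GLUP library than in every untreated library, in both genotypes of the gastric cancer cell line HGC-27. These 3 genes were picked from 20345 rows of the expression table on that very difference, so their response to GLUP is described here and not tested. The other members of the TMTC family, TMTC2, TMTC3 and TMTC4, were added as paralogs of TMTC1 whatever their values, which makes 6 genes. All 6 averaged 1 FPKM or more over the 12 libraries and so belonged to the 11225 rows tested. FPKM counts the fragments of a gene against its transcript length and against all mapped fragments of the library, so it is a level per length.

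The 12 libraries fall into 4 groups of 3, and all of them are from HGC-27, an established human gastric cancer line. WT untreated cells (replicates 1 to 3) and WT GLUP cells (replicates 14 to 16) carry no stated edit, and their labels give no genotype beyond the code NC. TEAD4KO untreated cells (replicates 1 to 3) and TEAD4KO GLUP cells (replicates 14 to 16) carry the genotype label TEAD4KO, a knockout of the Hippo pathway transcription factor TEAD4. GLUP is a cross-linked peptide designed to act on TEAD4, and the untreated cells received peptide buffer according to the study's methods. The labels give neither dose nor time for GLUP, and whether TEAD4KO is 1 clone is not given in the sources used here. The study's methods speak of biological replicates, but the labels do not say whether the 3 libraries of a group came from separate cultures, so the p-values below measure the spread between these libraries.

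TMTC1 to TMTC4 are multipass membrane proteins of the endoplasmic reticulum that attach O-linked mannose to the extracellular domains of cadherins and protocadherins, the adhesion proteins that hold cells together. They take the sugar from dolichol-phosphate-mannose and work apart from POMT1 and POMT2, which mannosylate alpha-dystroglycan, and from TMEM260, which modifies plexins and receptor tyrosine kinases. TMTC1 and TMTC2 have also been described as partners of the calcium pump of the reticulum. FILIP1L (filamin A interacting protein 1 like) is a cytoplasmic coiled-coil protein studied as an inhibitor of cell migration. FAM171B is a single-pass membrane protein of largely unknown function.

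The TEAD4 transcript was not lower in the libraries labelled TEAD4KO. Its level does not show whether the protein was lost, and no protein was measured in these libraries. TEAD4 was at 24.4 to 25.8 FPKM in WT untreated libraries and at 22.9 to 23.8 in WT GLUP libraries. It was at 27.2 to 30.1 FPKM in untreated and at 26.0 to 29.4 in GLUP libraries labelled TEAD4KO, so no library labelled TEAD4KO had less TEAD4 transcript than a WT library. On the log2(FPKM + 1) scale TEAD4 was higher under the label TEAD4KO by 0.17 untreated (adjusted p = 0.135 by limma). With GLUP it was higher by 0.23 (adjusted p = 0.0479 by limma), where 5.84% of all rows tested were called. The total FPKM of a library ran from 375361 to 423757, and 21.1% to 25.5% of rows were at 0. On the first principal component (39.7% of the variance) WT libraries lay between -16.2 and -3.71, and those labelled TEAD4KO lay between 9.91 and 19.8, except untreated 1 at -0.962 and GLUP 16 at -5.26. Differences of the 6 genes and calls between genotypes that rest on these libraries are also given without both. Both lay towards the WT libraries on this component. Without them the rows called between genotypes rose from 608 to 2231 untreated and from 656 to 3121 with GLUP. A larger difference between genotypes without them is therefore no independent support for a call. Of the markers of an epithelial line, EPCAM averaged 0.0937 FPKM, KRT18 0.168 and KRT19 0.0109 (0 in 9 libraries), while KRT8 averaged 5.78 and CDH1 2.75. The mesenchymal marker VIM averaged 1420 FPKM, and fibroblast markers were high too, with COL1A1 at 239. Summed markers of gastric differentiation reached at most 0.284 FPKM. EPCAM, KRT18 and KRT19 were thus at or near 0 in cells labelled as gastric cancer cells, while KRT8 and CDH1 were detected in every library.

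The genes lie at 6 separate loci, given here on GRCh37. TMTC1 (ENSG00000133687) spans chr12:29653773-29937692 on the minus strand, TMTC2 (ENSG00000179104) spans chr12:83080659-83528649 on the plus strand, and TMTC3 (ENSG00000139324) spans chr12:88536073-88593664 on the plus strand. TMTC4 (ENSG00000125247) spans chr13:101255879-101327347 on the minus strand. FAM171B (ENSG00000144369) spans chr2:187558787-187630686 on the plus strand. FILIP1L (ENSG00000168386) spans chr3:99547655-99833357 on the minus strand, and all of it lies within CMSS1, a gene on the opposite strand. Whether reads were assigned by strand is not stated, so FILIP1L and CMSS1 reads cannot be told apart with certainty. The genes themselves range from 57.6 kb (TMTC3) to 448.0 kb (TMTC2). The GC content of their longest transcripts ranges from 33.5% (TMTC3) to 44.5% (TMTC4).

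The promoters are shown for the 3 genes, each of which was chosen on its own for a higher level with GLUP. RefSeq (GRCh38.p14) lists 2 starts for TMTC1, 2 for FILIP1L and 1 for each of the other 4 genes, and the values per gene do not tell which start was used. The 250 bases before each start follow, read 5′ to 3′ on the strand of the gene, with capitals for a match to GGAATG (bound by TEAD factors), TGANTCA (AP-1) or CCGGAA (ETS factors) on either strand.
TMTC1 first start, chr12:29784760-29785009, minus strand: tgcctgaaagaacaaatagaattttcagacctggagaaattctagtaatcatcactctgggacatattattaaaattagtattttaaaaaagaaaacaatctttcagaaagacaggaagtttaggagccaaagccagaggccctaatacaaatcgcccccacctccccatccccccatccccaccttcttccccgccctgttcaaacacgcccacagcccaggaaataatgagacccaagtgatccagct
TMTC1 second start, chr12:29783943-29784192, minus strand: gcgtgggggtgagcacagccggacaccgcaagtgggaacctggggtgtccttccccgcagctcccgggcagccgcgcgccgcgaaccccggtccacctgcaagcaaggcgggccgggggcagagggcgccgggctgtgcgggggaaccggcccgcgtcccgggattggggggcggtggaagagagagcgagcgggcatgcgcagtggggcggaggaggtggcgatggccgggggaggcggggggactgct
FILIP1L first start, chr3:99876174-99876423, minus strand: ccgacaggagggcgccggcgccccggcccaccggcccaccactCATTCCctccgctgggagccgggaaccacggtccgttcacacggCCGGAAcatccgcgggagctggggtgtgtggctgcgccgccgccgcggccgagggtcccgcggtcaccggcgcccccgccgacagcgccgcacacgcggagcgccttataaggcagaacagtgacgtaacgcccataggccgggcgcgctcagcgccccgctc
FILIP1L second start, chr3:100114502-100114751, minus strand: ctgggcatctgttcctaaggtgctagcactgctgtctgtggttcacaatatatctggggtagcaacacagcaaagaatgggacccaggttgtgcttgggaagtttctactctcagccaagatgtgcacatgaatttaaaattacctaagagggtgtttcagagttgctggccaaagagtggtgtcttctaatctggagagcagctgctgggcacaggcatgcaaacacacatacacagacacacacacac
FAM171B, chr2:186693810-186694059, plus strand: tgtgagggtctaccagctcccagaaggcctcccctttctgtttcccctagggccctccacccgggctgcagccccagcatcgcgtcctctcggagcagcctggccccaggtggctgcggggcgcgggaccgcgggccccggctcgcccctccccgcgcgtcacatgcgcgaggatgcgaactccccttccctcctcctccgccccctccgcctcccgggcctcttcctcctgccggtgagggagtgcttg

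Matches were counted in windows from 250 bases before to 50 bases after each start, of which the first 250 are printed. Only the first start of FILIP1L held any among these 5 windows. It had GGAATG on the reverse strand at position -207 and CCGGAA on the forward strand at position -163, counted from the start to the first base of the match. TMTC2 held CCGGAA on the reverse strand at position -81, and the windows of TMTC3 and TMTC4 held none of the 3 motifs. Over all 35116 promoters of that length, 14% held GGAATG, 7.71% held TGANTCA and 17.2% held CCGGAA. The motifs share no overlap in these windows, and a match describes letters only. The first TMTC1 window and the second FILIP1L window were poorer in G and C (44% and 48% of the bases shown) than the other TMTC1 window (76.4%), the other FILIP1L window (75.6%) and FAM171B (72.8%).

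TMTC1 stood at 8.05, 8.83 and 7.76 FPKM in WT untreated libraries and at 10.5, 11.7 and 11.6 FPKM in WT GLUP libraries. In libraries labelled TEAD4KO it stood at 8.41, 6.88 and 7.53 FPKM without the peptide, and GLUP libraries were at 13.7, 11 and 11.9 FPKM. The highest untreated library, WT untreated 2, lay below the lowest GLUP library, WT GLUP 14, so treated and untreated libraries did not overlap in either genotype. The mean level was 37.3% higher with GLUP in WT (8.21 ± 0.554 against 11.3 ± 0.658 FPKM, SD, n = 3 each) and 60.2% higher in cells labelled TEAD4KO (7.61 ± 0.77 against 12.2 ± 1.39). On the log2(FPKM + 1) scale, which understates changes of low genes, the difference was 0.41 ± 0.094 (SE) in WT and 0.61 ± 0.094 in cells labelled TEAD4KO, or 0.69 there without the 2 libraries that stood apart. In bulk RNA a higher level per cell and a larger share of cells that express a gene cannot be told apart.

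FILIP1L was the lowest of the 3 genes, with a mean of 2.5 FPKM over the 12 libraries. It stood at 1.95, 2.03 and 2.18 FPKM in WT untreated libraries and at 2.77, 3.15 and 3.6 FPKM in WT GLUP libraries. In libraries labelled TEAD4KO it stood at 1.40, 1.81 and 2.04 FPKM without the peptide, and GLUP libraries were at 2.94, 2.86 and 3.21 FPKM. The highest untreated library of all was WT untreated 3, and it lay below the lowest GLUP library. The mean level was 54.7% higher with GLUP in WT (2.05 ± 0.113 against 3.18 ± 0.414 FPKM) and 71.6% higher in cells labelled TEAD4KO (1.75 ± 0.321 against 3.01 ± 0.182). The log2(FPKM + 1) difference was 0.45 ± 0.11 (SE) in WT and 0.55 ± 0.11 in cells labelled TEAD4KO, or 0.42 there without the 2 libraries that stood apart. The lowest FILIP1L level of all was in TEAD4KO untreated 1, which is 1 of these libraries.

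FAM171B was the most abundant of the 6 genes, with a mean of 17.4 FPKM, above 66.2% of the rows tested. It stood at 14.8, 15.2 and 14.7 FPKM in WT untreated libraries and at 19.8, 18.8 and 20.1 FPKM in WT GLUP libraries. In libraries labelled TEAD4KO it stood at 12.8, 13.9 and 17.0 FPKM without the peptide, and GLUP libraries were at 20.4, 21.3 and 20 FPKM. TEAD4KO untreated 3 came closest to the treated libraries but remained below all of them. The mean level was 31.4% higher with GLUP in WT (14.9 ± 0.29 against 19.6 ± 0.674 FPKM) and 41.1% higher in cells labelled TEAD4KO (14.6 ± 2.18 against 20.5 ± 0.672). The log2(FPKM + 1) difference was 0.37 ± 0.085 (SE) in WT and 0.48 ± 0.085 in cells labelled TEAD4KO, or 0.42 there without the 2 libraries that stood apart.

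**Figure D1:**
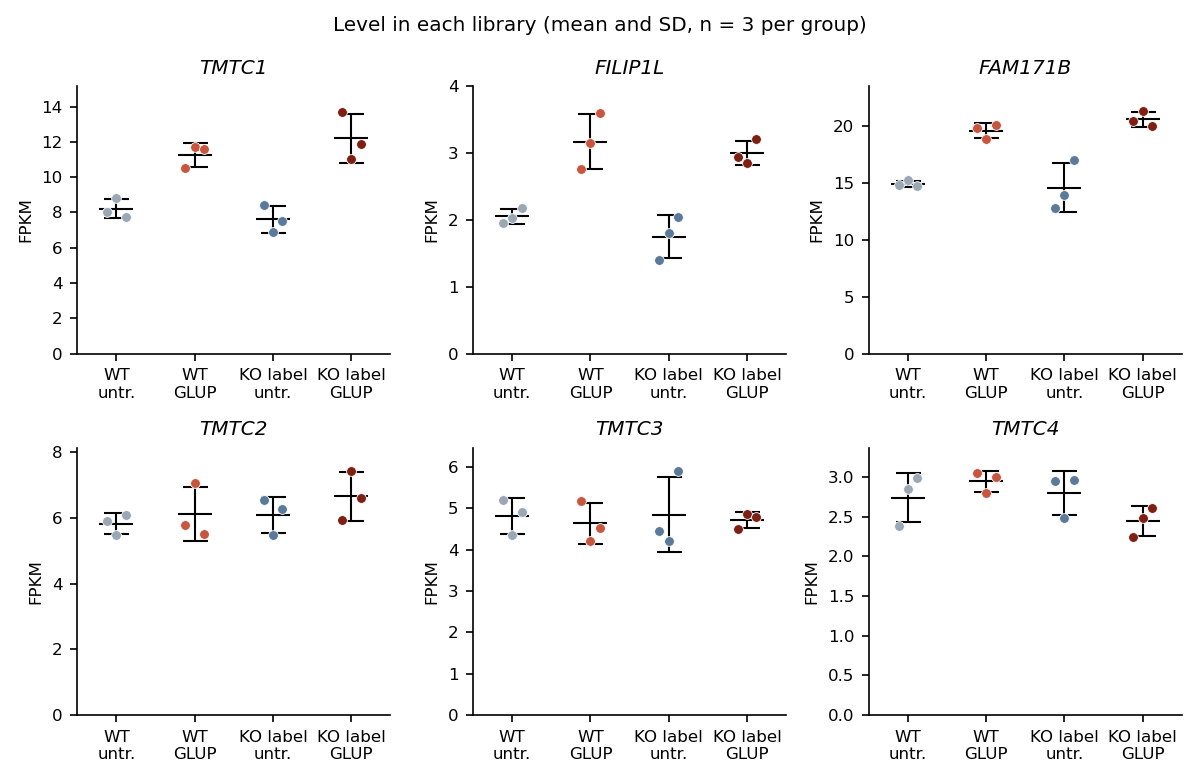
Level of each of the 6 genes in FPKM (vertical axis, from 0) in the 4 groups (horizontal axis), with 1 point per library and the mean and SD (n = 3) as bars; KO label stands for the libraries labelled TEAD4KO. In the upper row every GLUP point lies above every untreated point, while in the lower row (TMTC2, TMTC3 and TMTC4) treated and untreated points overlap in both genotypes.

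The order of the group means was the same for the untreated groups of these 3 genes and differed for the GLUP groups. Untreated cells labelled TEAD4KO had the lowest mean and WT untreated cells the next, and their libraries overlapped for each gene. The gap between untreated and GLUP groups is what the genes were chosen for, and the GLUP groups overlapped each other. WT GLUP was the higher GLUP group for FILIP1L, and GLUP cells labelled TEAD4KO were the higher for TMTC1 and FAM171B.

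Separation of this kind was not rare in the table. In WT, 10.2% of the 11225 rows had every GLUP library above every untreated library, in cells labelled TEAD4KO 2.85% did, and 112 rows (0.998%) did in both. Among those 112 rows, ordered by the log2 difference over both genotypes, TMTC1 was at rank 5 with 0.51 ± 0.069 (SE), FILIP1L at rank 8 with 0.50 ± 0.075 and FAM171B at rank 11 with 0.42 ± 0.059. TDO2, IL17RD, CYP24A1, ETV1, DKK1 and ETV5 were the other rows among the first 8. The gap between the lowest GLUP and the highest untreated library was smallest for FAM171B in cells labelled TEAD4KO (0.22 on the log2 scale) and largest for TMTC1 and FILIP1L there (0.35 each). TMTC2 did not meet the rule, as its treated and untreated libraries overlapped by 0.12 in each genotype.

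An adjusted p under 0.05 was reached by 1 row for GLUP in WT (0.00891% of the rows tested), by 5 rows for GLUP in cells labelled TEAD4KO (0.0445%) and by 34 rows for GLUP over both genotypes, where genotype was a covariate (0.303%). The 3 genes were chosen with these comparisons in view, so nothing is read from their place in them. At an unadjusted p under 0.05 there were 385, 716 and 846 rows, by limma in each case.

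The paralogs were not chosen on their values, and none of the 3 was called in any GLUP comparison. This lies near the share of all rows called, 0.00891% in WT, 0.0445% in cells labelled TEAD4KO and 0.303% over both genotypes. TMTC2 stood at 5.90, 5.49 and 6.10 FPKM in WT untreated and at 5.79, 7.06 and 5.53 in WT GLUP libraries. In libraries labelled TEAD4KO it stood at 6.54, 5.47 and 6.27 FPKM without the peptide, and GLUP libraries were at 5.95, 7.44 and 6.61 FPKM. Replicate 15 was the highest GLUP library in both genotypes, and the groups overlapped. Over both genotypes the TMTC2 difference was 0.083 on the log2 scale (limma, 95% interval -0.068 to 0.23, adjusted p = 0.864).

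TMTC3, the family member linked to brain malformation when mutated, stood at 4.34 to 5.2 FPKM in WT untreated and 4.21 to 5.18 FPKM in WT GLUP libraries. In libraries labelled TEAD4KO it ranged from 4.21 to 5.89 FPKM untreated and from 4.50 to 4.87 FPKM with GLUP. The WT ranges nearly coincide, and under the label TEAD4KO the GLUP range lies inside the wider untreated range. Its difference over both genotypes was -0.032 (95% interval -0.2 to 0.13, adjusted p = 0.965 by limma).

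TMTC4 stood at 2.39, 2.85 and 2.99 FPKM in WT untreated and at 3.05, 2.80 and 3.0 in WT GLUP libraries. In libraries labelled TEAD4KO it stood at 2.95, 2.48 and 2.97 FPKM without the peptide, and GLUP libraries were at 2.24, 2.48 and 2.61 FPKM. The untreated and GLUP libraries overlapped in each genotype. The GLUP difference was 0.081 in WT (95% interval -0.13 to 0.29) and -0.14 in cells labelled TEAD4KO (-0.35 to 0.067), with adjusted p = 0.999 and 0.915 by limma. The interaction, which compares these differences with each other, was -0.22 ± 0.14 (SE, adjusted p = 1.0).

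**Figure D2:**
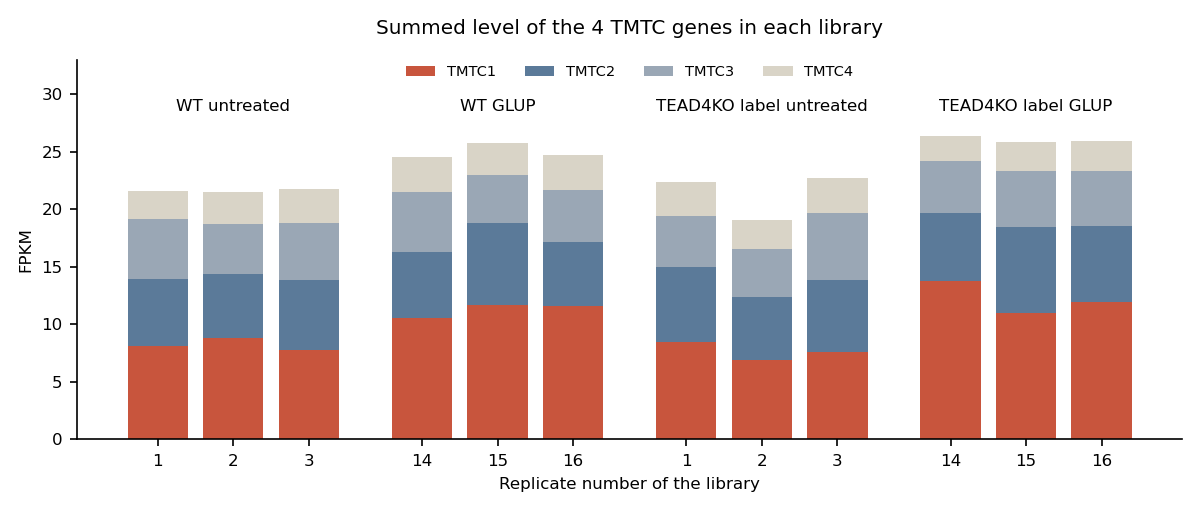
Stacked level of TMTC1, TMTC2, TMTC3 and TMTC4 in FPKM (vertical axis, from 0) in each of the 12 libraries (horizontal axis, replicate number). The GLUP bars are taller than the untreated bars, and the TMTC1 segment makes up the added height.

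TMTC1 was the largest contributor to the family in each group. The 4 genes summed to 21.6 ± 0.135 FPKM in WT untreated and 25 ± 0.679 in WT GLUP cells (SD, n = 3). In cells labelled TEAD4KO they summed to 21.3 ± 2.01 FPKM untreated and to 26.0 ± 0.337 with GLUP. TMTC2, TMTC3 and TMTC4 together were nearly level, at 13.4 ± 0.667, 13.7 ± 0.564, 13.7 ± 1.49 and 13.8 ± 1.06 FPKM in the same order of groups. TMTC1 therefore made up 38.0% ± 2.76 of the family total in WT untreated and 45.1% ± 2.1 in WT GLUP cells, and 35.7% ± 2.24 and 46.8% ± 4.73 in cells labelled TEAD4KO. These shares carry the difference on which TMTC1 was chosen and were not tested.

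The choice of genes compared GLUP with untreated libraries within each genotype and did not use the difference between genotypes. The comparisons between genotypes were therefore tested for all 6 genes. No member was called in untreated cells, where 5.42% of all rows tested were called, nor in GLUP-treated cells, where 5.84% were. Without the 2 libraries that stood apart, 2231 and 3121 rows were called and again no member, and a replicate block gave 1064 called rows in GLUP-treated cells and no member. In untreated cells TMTC1 differed by -0.10 on the log2 scale (95% interval -0.30 to 0.10, adjusted p = 0.578 by limma), FILIP1L by -0.16 (-0.39 to 0.077, adjusted p = 0.432) and FAM171B by -0.041 (-0.22 to 0.14, adjusted p = 0.815). With GLUP they differed by 0.099 (adjusted p = 0.543 by limma), -0.056 (0.785) and 0.065 (0.67). The median of all rows tested was 0.023 and -0.004 in these comparisons. Without these libraries, the differences of TMTC1, FILIP1L and FAM171B were -0.17, -0.062 and 0.04 untreated and 0.11, -0.093 and 0.084 with GLUP.

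Among the paralogs the differences between genotypes in untreated cells lay between -0.001 (TMTC3) and 0.052 (TMTC2). TMTC4 came closest to a difference, in GLUP-treated cells, where the libraries labelled TEAD4KO (2.24 to 2.61 FPKM) all lay below the WT libraries (2.80 to 3.05 FPKM). Its mean was 2.44 ± 0.186 against 2.95 ± 0.134 FPKM, a log2 difference of -0.20 ± 0.097 (SE, 95% interval -0.41 to 0.01, adjusted p = 0.229 by limma). It was -0.23 (adjusted p = 0.115) without the 2 libraries. TMTC4 was the only member of 6 whose genotypes did not overlap with GLUP, and 29.5% of all rows tested did not overlap there either. In untreated cells no member was without overlap between genotypes, against 25.7% of all rows.

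The difference between GLUP responses in the genotypes was not called for any member, and 0.00891% of the rows tested were called, which is 1 row. The interaction was 0.20 ± 0.13 (SE) on the log2 scale for TMTC1 (95% interval -0.087 to 0.49), 0.10 ± 0.15 for FILIP1L (-0.23 to 0.43) and 0.11 ± 0.12 for FAM171B (-0.15 to 0.37), each with adjusted p = 1.0 by limma. TMTC1, FILIP1L and FAM171B were chosen for higher levels with GLUP in both genotypes, a rule that tends to leave out genes with unlike responses. Their interaction therefore cannot decide whether the responses in the genotypes are alike, and no conclusion is drawn from it. The upper ends of the intervals, 0.37 to 0.49, are about as large as the responses in WT. Without the 2 libraries that stood apart the interaction was 0.28 for TMTC1, 0.044 for FAM171B and -0.03 for FILIP1L, where the sign turned.

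**Figure D3:**
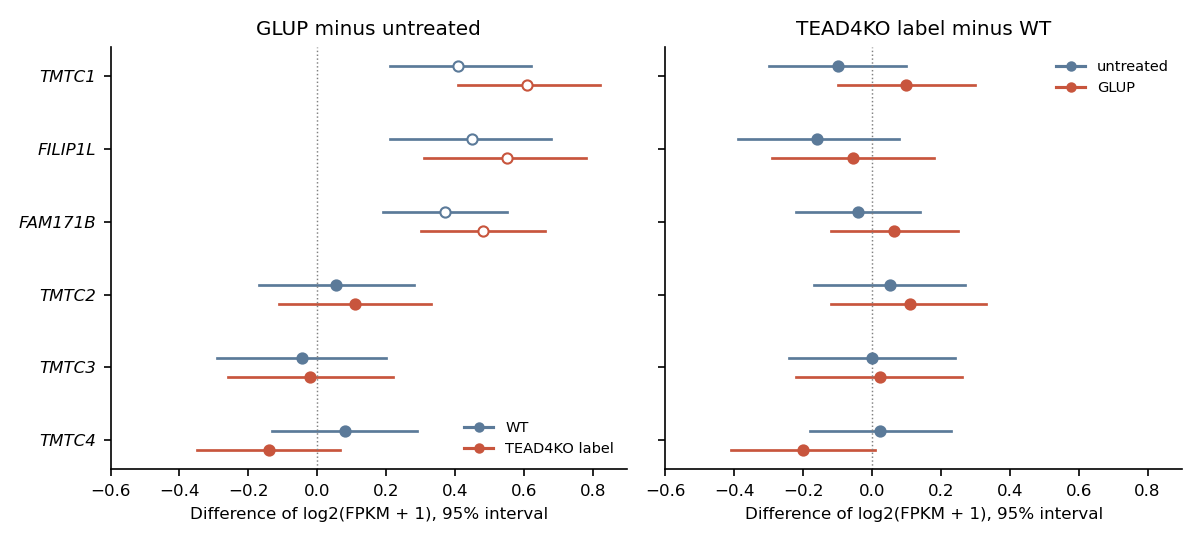
Differences of log2(FPKM + 1) with 95% intervals (horizontal axis) for the 6 genes (vertical axis), GLUP minus untreated in the left panel and label TEAD4KO minus WT in the right panel. Open points mark values on which the genes were chosen; the intervals of TMTC2, TMTC3 and TMTC4 on the left and of all 6 genes on the right include 0.

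Genes near the 3 chosen loci were compared next. Within 200 kb of TMTC1, FAR2 (a fatty acyl-CoA reductase) differed with GLUP over both genotypes by 0.21 ± 0.064 (SE) on the log2 scale, with adjusted p = 0.347 by limma. ERGIC2, a protein of the early secretory pathway, differed by 0.09 ± 0.055 (adjusted p = 0.755). Beside FAM171B, the integrin subunit gene ITGAV differed by 0.20 ± 0.071 (adjusted p = 0.477 by limma) and ZC3H15, a zinc finger gene, by -0.044 ± 0.051 (adjusted p = 0.908). None of these neighbours was called, where 0.303% of all rows were, and none had a difference above 0.21.

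CMSS1 holds FILIP1L within it and averaged 13.8 FPKM against 2.5 for FILIP1L. Its GLUP difference was 0.026 ± 0.092 (SE) in WT and -0.12 ± 0.092 in cells labelled TEAD4KO, with adjusted p = 0.999 and 0.932 by limma. Between genotypes in untreated cells CMSS1 differed by 0.28 (adjusted p = 0.0946) and FILIP1L by -0.16. TBC1D23, on the far side of the FILIP1L start, differed with GLUP by 0.076 ± 0.066 (adjusted p = 0.867 by limma).

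TMTC3 starts 0.197 kb from CEP290, a gene of the ciliary transition zone that runs the other way. CEP290 differed with GLUP by -0.13 ± 0.057 (SE, adjusted p = 0.629 by limma) over both genotypes, and TMTC3 by -0.032 ± 0.076. PCCA and GGACT, next to TMTC4, differed by -0.024 ± 0.079 and 0.045 ± 0.098. No tested neighbour of any of the 6 genes was called in any of the 6 comparisons. The share over all rows was at most 0.303% with GLUP, and 5.42% and 5.84% between genotypes.

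**Figure D4:**
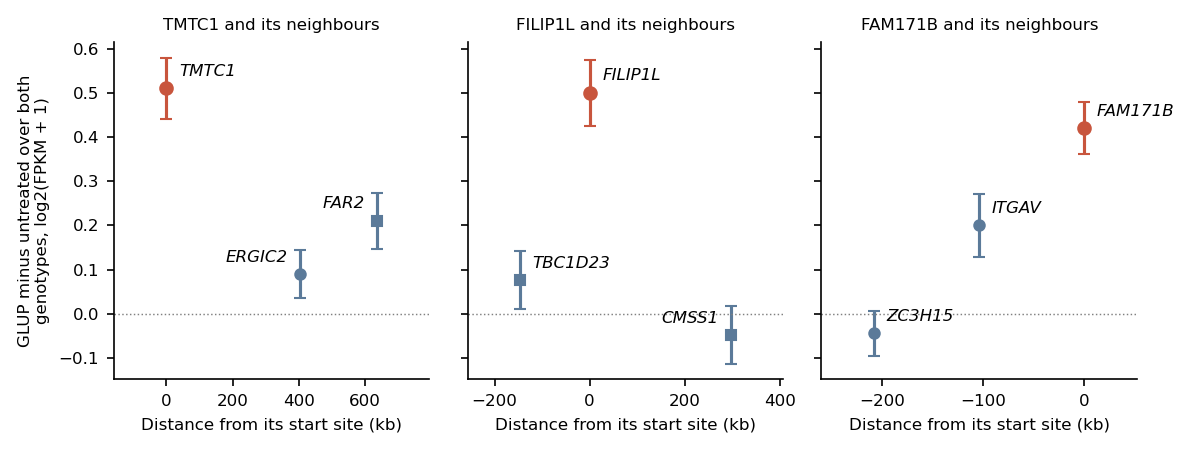
Difference with GLUP over both genotypes on the log2(FPKM + 1) scale with its SE (vertical axis) for TMTC1, FILIP1L, FAM171B and the tested genes within 200 kb of them, against the distance between start sites in kb (horizontal axis, positive along the direction of the gene; squares are on the opposite strand). The 3 genes, chosen on this value, lie at 0.42 to 0.51, and the neighbours lie between -0.048 and 0.21.

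Genes tied to the other O-mannosylation routes, not all of them enzymes, were compared as a list of 17, chosen with earlier results of these data known. Of 15 tested, 0 were called with GLUP in WT, in cells labelled TEAD4KO or over both genotypes. This lies near the 0.00891%, 0.0445% and 0.303% of all rows called there. Their median difference over both genotypes was 0.006, beside -0.004 for all rows tested, with 8 genes higher and 7 lower. POMT1 and POMT2 (7.1 and 9.36 FPKM) differed by -0.01 and -0.02, and TMEM260 (4.27 FPKM) by 0.04. POMK, the kinase that phosphorylates O-mannose on alpha-dystroglycan, had the highest value of the list, 0.21 ± 0.09 (SE, adjusted p = 0.654 by limma). SDF2L1, a chaperone partner found in this list for its similarity to mannosyltransferase domains, was the 1 gene of the 15 called between genotypes. It was higher in cells labelled TEAD4KO by 0.66 untreated (adjusted p = 0.00897 by limma) and by 0.68 with GLUP (adjusted p = 0.00646). Without the 2 libraries that stood apart it differed by 0.74 and 0.76, in a fit that called 2231 and 3121 of the 11225 rows. The untreated call held in 22 of 24 alternatives and the other in all 24. With 1 of 15 genes called, the list lies near the 5.42% and 5.84% of all rows.

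The 13 genes that supply dolichol-phosphate-mannose, the sugar donor of the TMTC enzymes, were all tested. None was called with GLUP, and their median difference over both genotypes was 0.005, beside 0.303% of rows called and a median of -0.004 over all rows. DPM1, the catalytic subunit of the donor synthase, averaged 47.3 FPKM and differed by 0.07 ± 0.06 (SE). MPDU1, which is needed for use of the donor, differed by -0.19 ± 0.05 with adjusted p = 0.289 by limma. Between genotypes in untreated cells MPDU1 was higher under the label TEAD4KO by 0.31 (adjusted p = 0.0399) and DPM2, a regulatory subunit, by 0.35 (adjusted p = 0.013). With GLUP only MPDU1 was called, by 0.31 (adjusted p = 0.0383). The list thus had 2 and 1 of 13 genes called between genotypes, beside 5.42% and 5.84% of all rows. The MPDU1 calls held in 10 of 24 alternatives each and the DPM2 call in 21 of 24, and the calls of the list ranged from 0 to 2 untreated and from 0 to 4 with GLUP. Without the 2 libraries that stood apart MPDU1 differed by 0.38 and 0.35 and DPM2 by 0.36 and 0.24, all called. That fit called 2231 rows untreated and 3121 with GLUP, so these calls add little.

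Cadherins and protocadherins, the proteins that TMTC enzymes modify, formed a list of 59 genes, of which 58 were in the table and 19 were tested. None was called in any comparison, where the share over all rows was 0.303% with GLUP over both genotypes and 5.42% and 5.84% between genotypes, so 0 of 19 lies near the background. With GLUP over both genotypes 5 were higher and 14 lower, with a median of -0.019 beside -0.004 for all rows. CDH6 was the most abundant at 48.2 FPKM and differed by -0.03 ± 0.06 (SE), followed by the giant cadherin FAT1 at 33.6 FPKM with 0.12 ± 0.12. The lowest and highest values were those of CDH1, the epithelial cadherin (-0.32 ± 0.08, adjusted p = 0.184 by limma), and of the neural cadherin CDH8 (0.28 ± 0.09, adjusted p = 0.381). The summed level of the 5 epithelial markers, CDH1 among them, was 8.49 to 9.56 FPKM in WT untreated and 6.48 to 7.49 in WT GLUP libraries, and 9.62 to 12.4 against 7.2 to 9.24 in those labelled TEAD4KO. It was thus lower with GLUP while TMTC1, FILIP1L and FAM171B were higher, and its part in their values was not tested. KRT8 differed over both genotypes by -0.35 ± 0.11 (SE, adjusted p = 0.336 by limma), so neither KRT8 nor CDH1 was called. Summed mesenchymal markers were at 1340 to 1410 FPKM in WT untreated and 1280 to 1340 in WT GLUP libraries. Under the label TEAD4KO they were at 1440 to 1650 and 1390 to 1740 FPKM. Summed fibroblast markers overlapped between GLUP and untreated libraries in each genotype. Leukocyte and endothelial markers overlapped between GLUP and untreated libraries, with at most 2.8 and 0.0439 FPKM in sum.

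The calcium store of the endoplasmic reticulum gave 13 tested genes of 18, with 0 called in any comparison and a median of 0.022 with GLUP over both genotypes, beside -0.004 for all rows. A count of 0 in 13 genes lies near the 0.303%, 5.42% and 5.84% of all rows called with GLUP over both genotypes and between genotypes. ATP2A2, which encodes the calcium pump described as a partner of TMTC1 and TMTC2, averaged 77.2 FPKM and differed with GLUP by 0.05 ± 0.05 (SE, adjusted p = 0.912 by limma). It differed between genotypes by -0.28 both untreated (adjusted p = 0.0562) and with GLUP (adjusted p = 0.0539).

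For FILIP1L, the 8 genes of its partners, relatives and host gene gave 7 tested rows, with 0 called with GLUP. A count of 0 in 7 lies near the 0.303% of all rows called with GLUP over both genotypes. FLNA, which encodes filamin A, a cross-linker of actin filaments, averaged 193 FPKM and differed by 0.03 ± 0.05 (SE). CTTNBP2, a cortactin-binding protein related to FILIP1L, had the highest value, 0.26 ± 0.07 (adjusted p = 0.184 by limma). FILIP1, the closest relative of FILIP1L, was at 0.0332 FPKM and was not tested. FAM171A1 and FAM171A2, the relatives of FAM171B, differed with GLUP by 0.00 ± 0.05 and -0.14 ± 0.07. FAM171A2 was higher in untreated cells labelled TEAD4KO by 0.41 (adjusted p = 0.0408 by limma), where 5.42% of all rows were called. The call held in 9 of 23 alternatives. Without the 2 libraries that stood apart it differed by 0.41 untreated and 0.38 with GLUP.

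**Figure D5:**
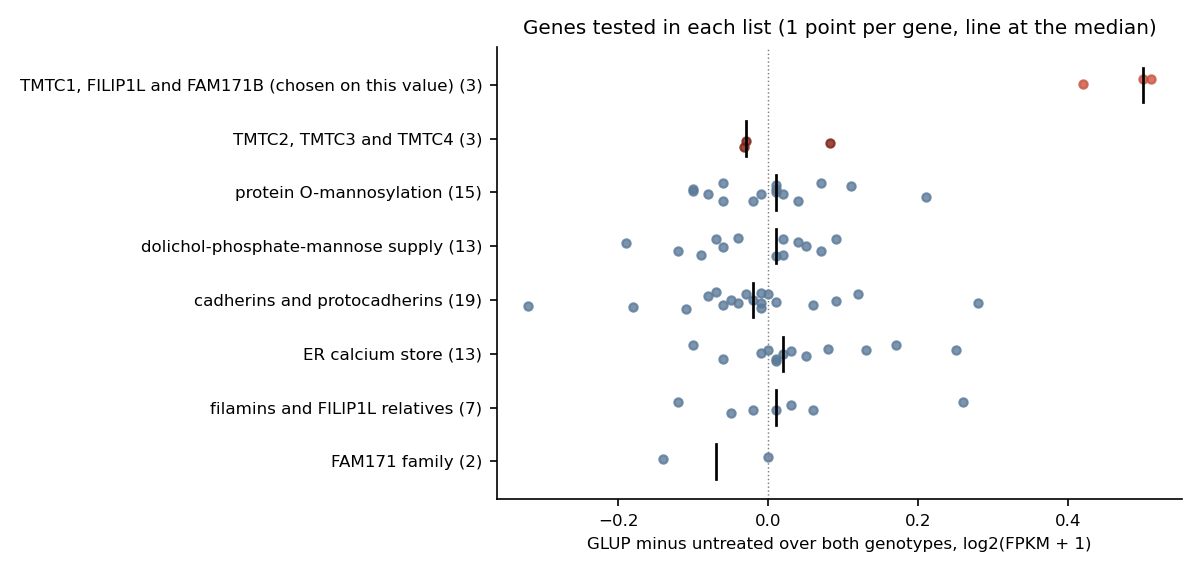
Difference with GLUP over both genotypes on the log2(FPKM + 1) scale (horizontal axis) for each tested gene of the lists (vertical axis, number of tested genes in brackets), with 1 point per gene and a line at the median. The 3 genes chosen on this value lie at 0.42 to 0.51, and no gene of the other lists exceeds 0.28.

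Likeness to other genes was described with Pearson's r over the same 12 libraries, whose 4 groups and shared library effects make the points dependent. The rows most like TMTC1 were STAT3 (r = 0.92), a transcription factor of cytokine signalling, the thrombin receptor F2R (0.90) and the growth factor TGFB2 (0.898). The rows most like FILIP1L were the growth factor receptor PDGFRA (0.925), the ETS factor ETV5 (0.922) and FAM171B itself (0.92). FAM171B was most like AGGF1 (0.959), an angiogenic factor, the transferrin receptor TFRC (0.943) and CRISPLD1 (0.943). Among the 3 genes, TMTC1 had r = 0.84 with FILIP1L and 0.843 with FAM171B, values that the choice of genes with separate GLUP and untreated libraries makes high.

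Within groups the picture differed in part. From deviations from the group means, r was -0.139 between TMTC1 and FILIP1L, -0.233 between TMTC1 and FAM171B, and 0.582 between FILIP1L and FAM171B. By this measure the rows most like each gene were others, namely R3HDM4 (r = 0.942) for TMTC1, CYP24A1 (0.907) for FILIP1L and SAMD9 (0.959) for FAM171B. None of the 3 rows most like a gene by one measure was among its 3 by the other. The rows most like FAM171B over the 12 libraries still had high r of deviations, 0.944 for TFRC, 0.825 for AGGF1 and 0.824 for CRISPLD1. For TMTC1 it was 0.678 with STAT3, 0.394 with F2R and 0.318 with TGFB2. For FILIP1L it was 0.37 with PDGFRA and 0.235 with ETV5. TMTC1 had r = 0.307 with TMTC2, -0.237 with TMTC3 and -0.229 with TMTC4 over the 12 libraries.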

How the data were processed

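RNA-seq of 12 HGC-27 samples was analysed in 4 groups of 3. The deposited table gives FPKM as the authors computed it, with a column for each sample, a row for each Ensembl gene and no pooling. The submitters' processing notes name HISAT2, Cufflinks and RSEM and the build hg19 without versions or roles, and the methods name an online cloud platform. Annotation and strand setting are not given in the sources used here. Whole reads could not be recovered: below 0.1 FPKM at most 0.673% of rows shared 1 ratio between libraries, against 27.0% in simulated whole reads. Depth is therefore unknown, and the number of samples sets the precision.

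The FPKM values were analysed as log2(FPKM + 1) with limma 3.58.1 in R 4.3.3 (lmFit, eBayes with trend) on rows averaging 1 FPKM or more, in 1 model of 4 groups, or with genotype as a covariate for GLUP over both genotypes. P-values were two-sided and adjusted by Benjamini-Hochberg over 11225 rows, and a call needed an adjusted p under 0.05. The study's further limit of a fold change over 2 was an alternative. An exact permutation test of 3 against 3 cannot give a p below 0.1. The script was tested on simulated data.

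The genes and lists were chosen with earlier results of these data known. Named were the 6 genes, tested genes within 200 kb, the 3 rows most like each chosen gene, and from each list its called genes, its extremes and those with a role tied to the 6 genes, the latter after their values were seen. A result of 1 list gene is not reported here. GENCODE release 44, lifted to GRCh37, gave positions. It also gave the length and GC content of the longest transcript for 96.5% of rows, and RefSeq gave the promoters.

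Same-numbered libraries, with numbers from the titles, had correlations of deviations of 0.106, 0.152 and 0.336 between genotypes with GLUP, all over 0.1, and -0.0569, 0.203 and -0.0149 untreated. Only the GLUP libraries thus met the criterion for pairing. Among differently numbered GLUP libraries, WT 14 with TEAD4KO 15 had 0.134 and WT 15 with TEAD4KO 14 had 0.116, both above the pair numbered 14. The other differently numbered GLUP pairs lay between -0.245 and -0.185. The values therefore do not show that libraries 14 and 15 are paired by number. The main model has no block, and the block is given beside the genotype comparison with GLUP. Alternatives were another pseudocount (0.1), filter, scaling, variance model or array weights, a GC and length correction (splines with 5 degrees of freedom), the replicate block, only the groups compared, and each library left out. A fit without TEAD4KO untreated 1 and GLUP 16 was added after seeing the data.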

Additional observations from a re-analysis of the deposited data

How the results depend on the processing

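GLUP differences of TMTC1, FILIP1L and FAM171B ranged from 0.35 (FAM171B in WT) to 0.76 (FILIP1L in cells labelled TEAD4KO) over the alternatives, and their sign is fixed by the choice of genes. No test of a member was called under any alternative, with adjusted p from 0.111 to 1.0, and the replicate block called none either. FILIP1L, TMTC3 and TMTC4 could not be fitted with a mean of at least 5 FPKM, since they lie below it.

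FILIP1L moved to 0.6, 0.76 and 0.68 (WT, TEAD4KO, both) with a pseudocount of 0.1. Signs of uncalled differences turned in these cases. With the GC and length correction, with or without the replicate block, TMTC1, FAM171B and TMTC3 between untreated genotypes gave 0.029, 0.028 and 0.099, FILIP1L between GLUP genotypes 0.018 and the TMTC3 interaction -0.011. Quantile normalization gave 0.011 for FILIP1L between GLUP genotypes. Array weights gave 0.017 and 0.036 for FAM171B and TMTC3 between untreated genotypes, -0.024 for the TMTC3 interaction and 0.032 for TMTC4 over both genotypes. Without TEAD4KO untreated 1 and GLUP 16, FILIP1L with GLUP in TEAD4KO was 0.42 and its interaction -0.03, and untreated genotypes differed by 0.04 (FAM171B), 0.046 (TMTC3) and -0.0058 (TMTC4), with -0.032 for the TMTC3 interaction.

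Leaving out 1 library at a time, or the 2 together, gave ranges that crossed 0 for FILIP1L between GLUP genotypes (-0.13 to 0.016), FAM171B between untreated genotypes (-0.15 to 0.04), TMTC2 with GLUP in WT (-0.037 to 0.11) and in the interaction (-0.016 to 0.15). TMTC3 ranged from -0.11 to 0.011 with GLUP in WT, -0.098 to 0.1 in TEAD4KO, -0.068 to 0.021 over both, -0.13 to 0.077 and -0.032 to 0.091 between untreated and GLUP genotypes, and -0.054 to 0.15 in the interaction. TMTC4 ranged from -0.046 to 0.086 between untreated genotypes and -0.073 to 0.0012 over both. FAM171B with GLUP in TEAD4KO ranged from 0.4 to 0.59, FILIP1L there from 0.42 to 0.62 and the FILIP1L interaction from -0.03 to 0.17.

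The counts of called rows depended more on the setting. GLUP in WT gave 1 row, 61 with array weights, 2 with the GC and length correction, quantile normalization or without the 2 libraries, 0 without the trend or with the fold limit, and 0 to 1 with 1 library left out. GLUP in TEAD4KO gave 5, 1 with array weights, only the groups compared, the fold limit or without the 2 libraries, 3 without the trend, and 1 to 6. GLUP over both gave 34, 109 with array weights, 53 with the GC and length correction, 22 with no filter, 0 with the fold limit, and 15 to 41 (without WT untreated 3 and TEAD4KO untreated 3). The interaction gave 1 with each library left out. TEAD4KO against WT gave 608 untreated, 394 with no filter, 382 with only the groups compared, 343 with the replicate block and GC and length correction, 4 with the fold limit, 2231 without the 2 libraries, and 119 to 1186 (without WT untreated 3 and TEAD4KO untreated 1). With GLUP it gave 656, 2487 with array weights, 1064 with the replicate block, 6 with the fold limit, 3121 without the 2 libraries, and 196 to 1952 (without WT GLUP 16 and TEAD4KO GLUP 16). The share of higher calls was 90.8% untreated and 84.0% with GLUP, and 59.2% and 63.0% after quantile normalization. The cause was not tested.

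TEAD4 between GLUP genotypes was no longer called in 7 of the alternatives that kept all libraries, with 0.076 to 0.23. Calls in the lists were 0 with GLUP, except 1 cadherin with array weights, and between genotypes they ranged from 0 to 4 per list. Depth is unknown, and 3 libraries a group limit what could be called.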
